A study of Mus musculus with 94 samples.

Results

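Single haematopoietic stem cells that carried transcripts of the mitotic programme were compared with those that did not. The members were chosen by their measured values: a cell was called cycling when at least 4 of 16 genes of late cell cycle (Mki67, Top2a, Ccnb1, Ccnb2, Cdk1, Ccna2, Aurkb, Birc5, Cdc20, Plk1, Bub1, Nusap1, Tpx2, Ube2c, Kif11 and Cenpf, called the rule genes here) reached 5 TPM, the abundance of a transcript scaled to the total of its cell, and every other cell was called non-cycling. Of the 94 cells, 13 were cycling and 81 were non-cycling.

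The cells were mouse stem cells of strain C57BL/6 that had begun in fetal liver, had been transplanted 6 months before, and were recovered from the recipients' hindlimb marrow. They were sorted as Cd45.2+ donor cells that lacked lineage markers and Cd48 and carried c-Kit, Sca-1 and Cd150, then lysed singly in a Fluidigm C1 device. The 46 Ski-KO cells (labelled as knockout of Ski, a co-repressor of Smad signalling) carried the label prefixes 051716, with 27 cells, and 051816, with 19 cells. The 48 Ski-WT cells all carried the prefix 061016, and the genotype therefore cannot be told apart from the prefix. The labels do not say how Ski was removed, in which cells, or what the prefixes stand for. No animal or donor was named, so each genotype was 1 sample, cells were not replicates, and no test was made. The spread given below is between cells.

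An adult stem cell of this gate is mostly quiescent, in the resting state called G0, and enters the cycle rarely. On entry, D-type cyclins with Cdk4 and Cdk6 release E2F factors, which switch on genes of DNA synthesis such as the Mcm helicase and Pcna. A later wave, which includes Ccnb1, Cdk1, Plk1 and the kinesins, builds the spindle and separates the chromosomes. Many promoters of this late wave hold a CHR element, TTTGAA, a site of the DREAM and B-Myb complexes, near CCAAT boxes, which bind NF-Y.

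The 150 bases from 120 before to 30 after the annotated start are shown for 8 genes as examples, because many promoters of the late wave are known to share these elements. They come from RefSeq (GRCm38.p6), a different build from the mm9 of the submitters' processing notes, and run 5′ to 3′ on the gene's strand. Capitals mark TTTGAA or its reverse complement TTCAAA, and CCAAT or its reverse complement ATTGG. Cdk1 lies at chr10:69352883-69353032 on the minus strand, Ccnb2 at chr9:70421525-70421674 (minus), Cdc20 at chr4:118437314-118437463 (minus) and Kif11 at chr19:37376262-37376411 (plus). Cdca8 lies at chr4:124936888-124937037 (minus), Hmgb2 at chr8:57511723-57511872 (plus), Ccnb1 at chr13:100786457-100786606 (minus) and Procr at chr2:155751097-155751246 (plus). In Cdca8 the last 2 matches overlap.
Cdk1: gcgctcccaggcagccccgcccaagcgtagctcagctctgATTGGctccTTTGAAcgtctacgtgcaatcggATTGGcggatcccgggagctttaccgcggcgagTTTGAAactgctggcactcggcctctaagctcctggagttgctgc
Ccnb2: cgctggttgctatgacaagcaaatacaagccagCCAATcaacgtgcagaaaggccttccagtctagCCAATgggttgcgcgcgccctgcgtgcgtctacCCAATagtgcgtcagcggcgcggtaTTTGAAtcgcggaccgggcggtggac
Cdc20: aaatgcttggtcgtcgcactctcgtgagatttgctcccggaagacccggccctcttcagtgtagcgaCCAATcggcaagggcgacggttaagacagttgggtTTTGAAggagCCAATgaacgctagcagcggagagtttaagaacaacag
Kif11: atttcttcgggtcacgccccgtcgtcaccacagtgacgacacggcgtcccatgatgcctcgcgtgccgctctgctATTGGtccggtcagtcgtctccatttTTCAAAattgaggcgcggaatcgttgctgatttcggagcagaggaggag
Cdca8: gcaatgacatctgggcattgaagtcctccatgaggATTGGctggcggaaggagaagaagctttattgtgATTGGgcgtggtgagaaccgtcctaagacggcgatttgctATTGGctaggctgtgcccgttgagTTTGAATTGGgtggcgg
Hmgb2: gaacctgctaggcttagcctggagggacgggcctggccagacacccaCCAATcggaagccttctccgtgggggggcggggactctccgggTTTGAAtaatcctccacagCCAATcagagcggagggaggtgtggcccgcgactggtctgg
Ccnb1: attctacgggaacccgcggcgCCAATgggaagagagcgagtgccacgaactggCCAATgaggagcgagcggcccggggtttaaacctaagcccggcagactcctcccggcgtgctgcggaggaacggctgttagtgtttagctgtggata
Procr: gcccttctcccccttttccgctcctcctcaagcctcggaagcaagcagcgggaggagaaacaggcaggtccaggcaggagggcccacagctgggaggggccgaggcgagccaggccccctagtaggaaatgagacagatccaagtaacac

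Counting the base before the start as position -1, TTTGAA began at -15 and -71 in Cdk1, at 5 in Ccnb2, at -18 in Cdc20 and at 14 in Cdca8. Ccnb1 held 2 CCAAT boxes and no TTTGAA, and Procr held neither. Of genes not printed, the rule genes Birc5 and Nusap1 and the gene Haus5, high in cycling cells, held neither in their 300-base windows. Bub1, Cks2 and Nudc held CCAAT and no TTTGAA. Over the whole 300-base windows of the table, 9 of the 13 rule-gene windows (69.2%) held both elements, against 2284 of all 32851 windows (6.95%). Of the mitosis genes outside the rule, 42 of 110 windows (38.2%) held both, and of the DNA replication genes 6 of 55 (10.9%). Among oxidative phosphorylation genes the count was 4 of 81 (4.94%) and among stem cell identity genes 3 of 48 (6.25%). The mitosis windows thus held the pair more often than the other lists did, as a description of sequence. A match is no evidence of binding, and no match says only that these letters are not in the window.

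The 16 rule genes split the cells with a gap. No cell had exactly 4 of them at 5 TPM; 48 cells had 0, 25 had 1, 6 had 2 and 2 had 3, and the 13 cycling cells had 5 to 16, with a median of 9. Just outside the rule lay cells B6 and G4 of prefix 051716, named by their wells, which both had Mki67 and Cenpf, with Top2a in B6 and Ube2c in G4. Just inside lay B11 of prefix 051716 and A3 and F5 of prefix 061016, with 5 rule genes each. Cells D5 and G6 of prefix 061016 held all 16.

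The rule fixes that its genes are higher in cycling cells, so their values are a description. Top2a, which untangles sister DNA, reached 5 TPM in 12 of 13 cycling and 12 of 81 non-cycling cells. Mki67, the proliferation antigen that coats mitotic chromosomes, did so in 11 and 4 cells, and Tpx2, a spindle assembly factor, in 10 and 0. Ccna2, the S and G2 cyclin, was at that level in 10 and 2 cells, and Birc5, a subunit of the chromosomal passenger complex, in 9 and 1. The mitotic cyclins Ccnb1 and Ccnb2 reached it in 7 and 8 cycling cells and in 1 non-cycling cell each. Fewer cycling cells reached it for the next 3 genes: Cdc20, an activator of the anaphase-promoting complex, in 3 cycling and 5 non-cycling cells, Plk1, the polo kinase, in 4 and 0, and Aurkb, the Aurora B kinase, in 4 and 1.

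By prefix, cycling cells made up 5 of 27 cells in 051716 (18.5%, exact Clopper-Pearson 95% interval 6.30 to 38.1), 1 of 19 in 051816 (5.26%, 0.133 to 26) and 7 of 48 in 061016 (14.6%, 6.07 to 27.8). The intervals cover counting error only, and they overlap. By genotype the shares were 6 of 46 Ski-KO cells (13%) and 7 of 48 Ski-WT cells (14.6%), and over all cells 13.8% (7.57 to 22.5). Ski itself was at 5 TPM or more in 6 Ski-WT cells and in 3 of the Ski-KO cells. All 3 cycling cells that reached that level were Ski-WT, and so were 3 of the 6 non-cycling ones. Because the labels do not give the deleted part, the Ski values do not check the genotypes.

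The label was then checked with genes outside the rule. Of 120 further mitosis genes in the table, cycling cells held 33 to 88 at 5 TPM (median 47) and non-cycling cells 5 to 38 (median 13). Those numbers hardly overlapped: 10 of the 13 cycling cells lay above every non-cycling cell, and 3 of the 81 non-cycling cells reached the lowest cycling cell. DNA replication genes separated the classes far less, with 5 to 46 of 58 in cycling cells (median 28) and 2 to 46 in non-cycling cells (median 9). Of the non-cycling cells, 18 of 81 had 20 or more replication genes (22.2%, interval 13.7 to 32.8), against 9 of 13 cycling cells. These 18 cells were 3 of 22 non-cycling cells in 051716, 6 of 18 in 051816 and 9 of 41 in 061016, and they held 13 to 38 mitosis genes. They had a median of 4187 genes above 0, against 3412 over all non-cycling cells. The part of this in their replication counts was not tested. The label cycling therefore stands here for mitotic transcripts, and the non-cycling class includes cells with many replication transcripts.

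The cycling cells also held more detected genes. They had 2995 to 5214 genes above 0 (median 4399) and non-cycling cells 2326 to 4839 (median 3412), and 4 of the 81 non-cycling cells reached the cycling median. The values are TPM and keep no sequencing depth, and the part of this difference in the results below was not tested. Values are given beside the results with each cell's detected genes as a covariate, or in the 11 cycling and 36 non-cycling cells with at least 3500 genes, whose medians were still apart at 4785 and 3861 genes.

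**Figure D1:**
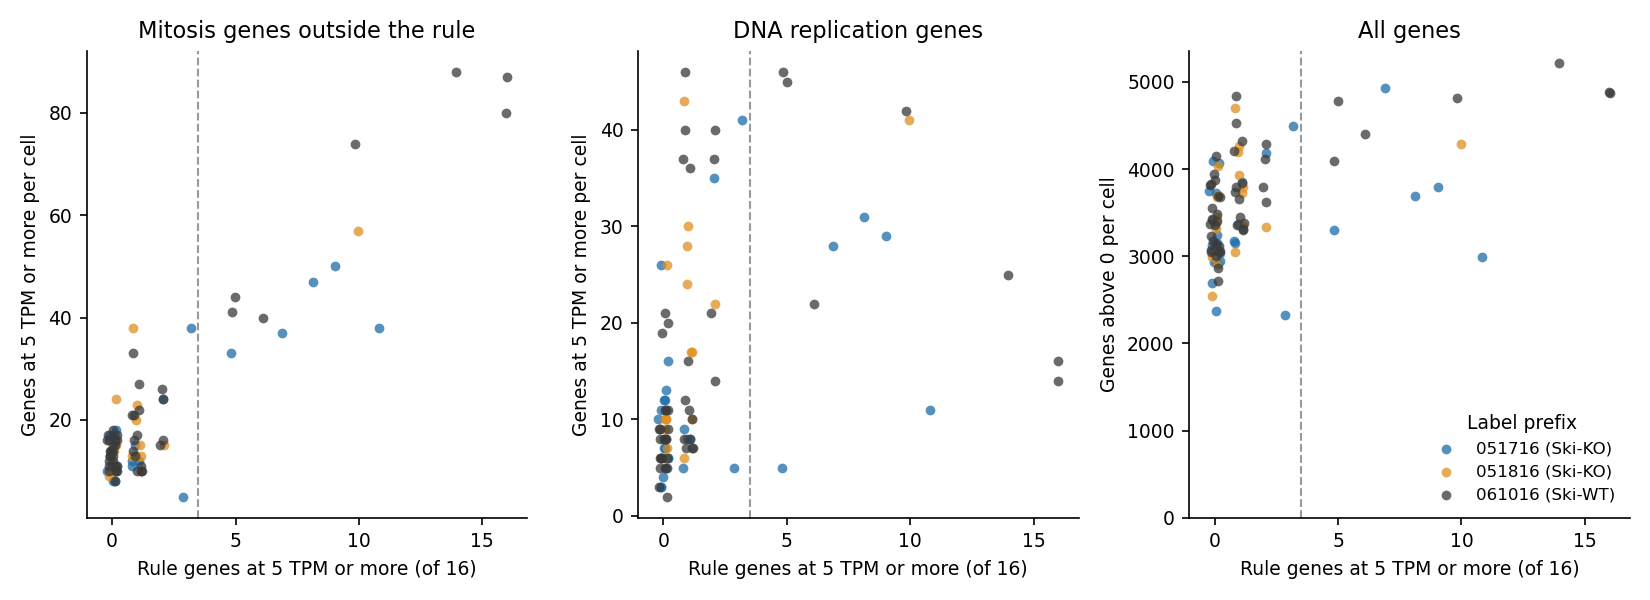
Each point is a cell, coloured by label prefix; x, the number of the 16 rule genes at 5 TPM or more; y, the number of mitosis genes outside the rule (left), of DNA replication genes (middle) and of all genes above 0 (right). The dashed line separates non-cycling from cycling cells. Mitosis genes run from 33 to 88 in the 13 cycling cells, and replication genes reach 46 on both sides of the line.

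Within the cycling class the 2 gene groups were held in different proportions. The highest numbers of replication genes, 46, 45, 42 and 41 of 58, were in cells F5, A3 and E7 of prefix 061016 and A3 of 051816, which held 5, 5, 10 and 10 rule genes. These cells also held 41, 44, 74 and 57 further mitosis genes, where non-cycling cells held at most 38. Cells D5 and G6, with all 16 rule genes and 87 and 80 further mitosis genes, held 16 and 14 replication genes. In those 2 cells Pcna, the replication clamp, and Tk1, thymidine kinase, were at 0, as was Mcm2, a helicase subunit. In F5 they stood at 8.02, 7.93 and 5.19 on the log2(TPM + 1) scale, and in E7 at 10.12, 9.64 and 7.63. Cell E3, with 14 rule genes and 88 mitosis genes, held 25 replication genes and had all 3 transcripts, at 5.16, 7.72 and 6.96. Cell B11 of 051716 was low in both groups, with 5 replication genes and 33 mitosis genes. Thus the cycling class ran from cells with many genes of both groups to cells with many mitosis genes and fewer replication genes.

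Transcripts of the sort markers were examined in both classes. The sort acted on surface protein, so a transcript that was not detected does not check the gate. Cd48, the marker the sort excluded, reached 5 TPM in no cell of either class. Kit did so in 10 of 13 cycling and 69 of 81 non-cycling cells, Ly6a, which encodes Sca-1, in 7 and 49, and Ptprc, which encodes Cd45, in 9 and 52. Slamf1, which encodes Cd150, did so in only 4 and 7, although the cells were sorted as carrying Cd150. Some markers of later cells were at 0 in all 94 cells: Mpo, Elane, Ctsg, Cebpa and Csf1r of the myeloid line, Hbb-b1 of the red cell line, and Il7r and Dntt of the lymphoid line. Other listed markers were not, among them Gata1 of the red cell line and Pf4 of the megakaryocyte line. In some cycling cell 3 of 14 myeloid, 3 of 13 erythroid, 3 of 8 lymphoid and 11 of 14 megakaryocyte genes reached 5 TPM. In some non-cycling cell 6, 8, 4 and 12 of them did. The summed TPM of the 8 lymphoid genes in the table ran from 0 to 4114 in cycling cells (median 152) and from 0 to 2890 in the others (median 52), and of the 14 myeloid genes from 256 to 1851 (median 712) and from 0 to 4115 (median 661). The summed TPM of the 9 macrophage genes was 0 in every cycling cell and at most 1046 in a non-cycling cell. The summed TPM of the 14 megakaryocyte genes ran from 153 to 9308 in cycling cells (median 629) and from 24.8 to 9357 in non-cycling cells (median 1140), and of the 13 erythroid genes from 211 to 5922 (median 3495) and 87.5 to 9844 (median 3432). The ranges of these lists overlapped between the classes, and their part in the results was not tested.

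Across the genes outside the rule, the difference was taken as the mean log2(TPM + 1) over cycling cells minus that over non-cycling cells. Of 8772 genes above 0 in at least 10% of all cells, 1632 (18.6%) were higher by at least 1 and 234 (2.67%) lower by at least 1, with the same sign in both prefixes that held at least 3 cells of each class (051716 and 061016). These shares are the background against which each list is read. Over the 8772 genes the differences had a median of 0.29, and of the 4548 genes with the same sign in both prefixes 2926 were higher in cycling cells. This balance depended on the scale: higher calls were 87.5% of all calls as measured, 49.2% with detected genes as a covariate (838 higher, 866 lower), 52.9% after quantile normalization (868 and 772), 24.6% when mean TPM + 1 was compared as a log2 ratio (750 and 2304) and 71% in cells with at least 3500 genes (1281 and 523). The median over all genes was -0.05 with the covariate, -0.09 after quantile normalization and -0.25 with the ratio. For several lists below, values on some of these scales are given beside the median. The other lists are given on the main scale only, and their direction on these scales is not shown.

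**Figure D2:**
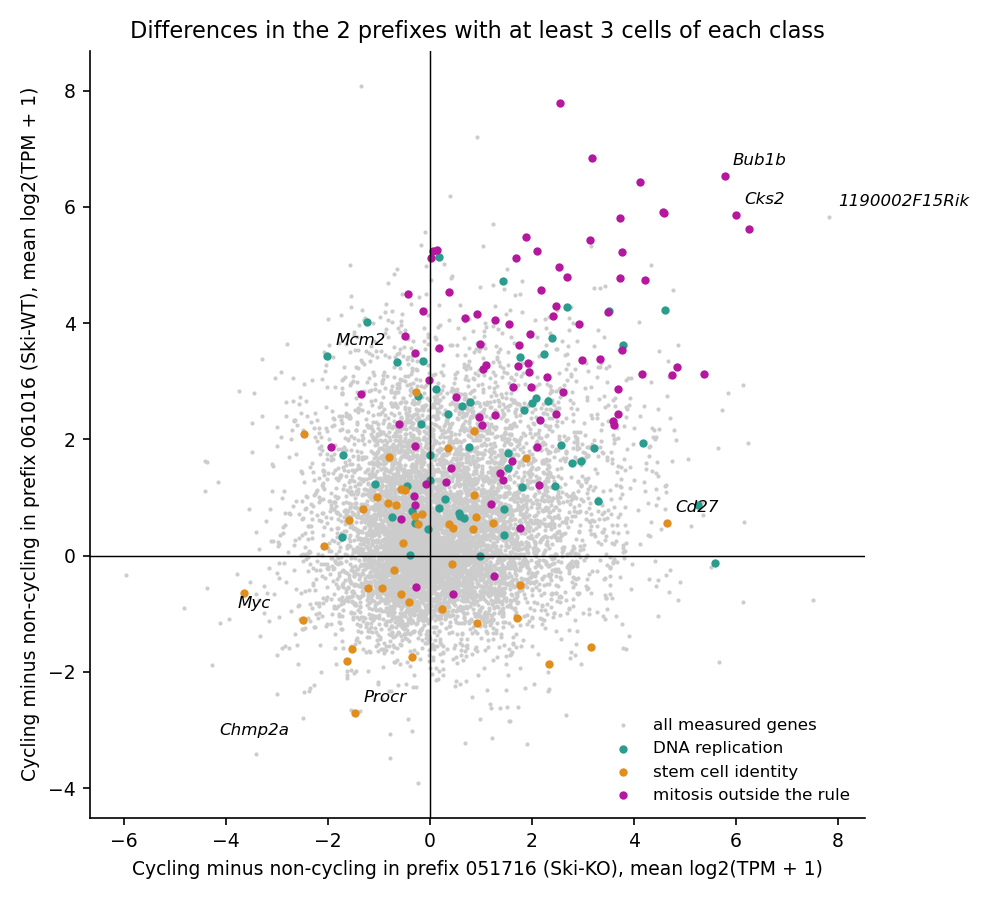
Each point is a measured gene outside the rule; x, the difference cycling minus non-cycling in mean log2(TPM + 1) within prefix 051716 (5 and 22 cells); y, the same within prefix 061016 (7 and 41 cells). Mitosis genes lie mostly in the upper right quadrant, stem cell identity genes around the origin, and replication genes between them with some, such as Mcm2, of opposite sign in the 2 prefixes.

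The genes highest in cycling cells in both prefixes were mostly mitotic. Ranked by the smaller of the 2 prefix differences, the 12 highest outside the rule were Cks2, 1190002F15Rik, Bub1b, Tubb4b, Cdca8, Ckap2, Hmgb2, Nudc, Gmnn, Prc1, Cks1b and Haus5, with differences from 4.01 to 6.41. In the lone cycling cell of prefix 051816, 9 of the 12 had the same sign and Bub1b, Tubb4b and Ckap2 the opposite. These 12 were chosen for large differences of the same sign in both prefixes, and none changed sign under 22 alternatives. Some of the alternatives, such as 5 rule genes or a level of 10 TPM, kept the same 13 cycling cells.

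Cks2, a small subunit that binds Cdk1, ran from 0 to 10.70 over the cycling cells (median 8.85), and its median over non-cycling cells was 0. It reached 5 TPM in 11 of 13 cycling and 19 of 81 non-cycling cells, so the classes overlapped, and the difference of the means was 5.61. Its paralogue Cks1b stood at 11 and 19 cells as well, with a difference of 5.33. Bub1b, which encodes the spindle checkpoint protein BubR1, reached that level in 10 cycling and 2 non-cycling cells, and its mean was 5.88 against 0.26. Cdca8, the passenger complex subunit borealin, did so in 10 and 1 cells, with means of 5.81 and 0.13. Outside the cycling class these 2 genes were at 0 or near it in almost every cell.

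Of the 12 genes, 3 were at 5 TPM or more in every cycling cell. Hmgb2, a chromatin protein abundant in dividing cells, ran from 6.04 to 10.05 in cycling cells and from 0 to 9.65 in the others, where its median was 4.94. Tubb4b, a beta-tubulin, had a lowest cycling value of 3.06 and reached 5 TPM in 38 non-cycling cells. The other was 1190002F15Rik, a non-coding RNA whose current symbol is Lockd and which lies just downstream of Cdkn1b. It ran from 3.67 to 10.32 in cycling cells (median 8.75), and 14 of 81 non-cycling cells reached 5 TPM, with a difference of 6.41, the largest of the 12. Its neighbour Cdkn1b, the inhibitor p27, had means of 3.76 and 3.61.

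**Figure D3:**
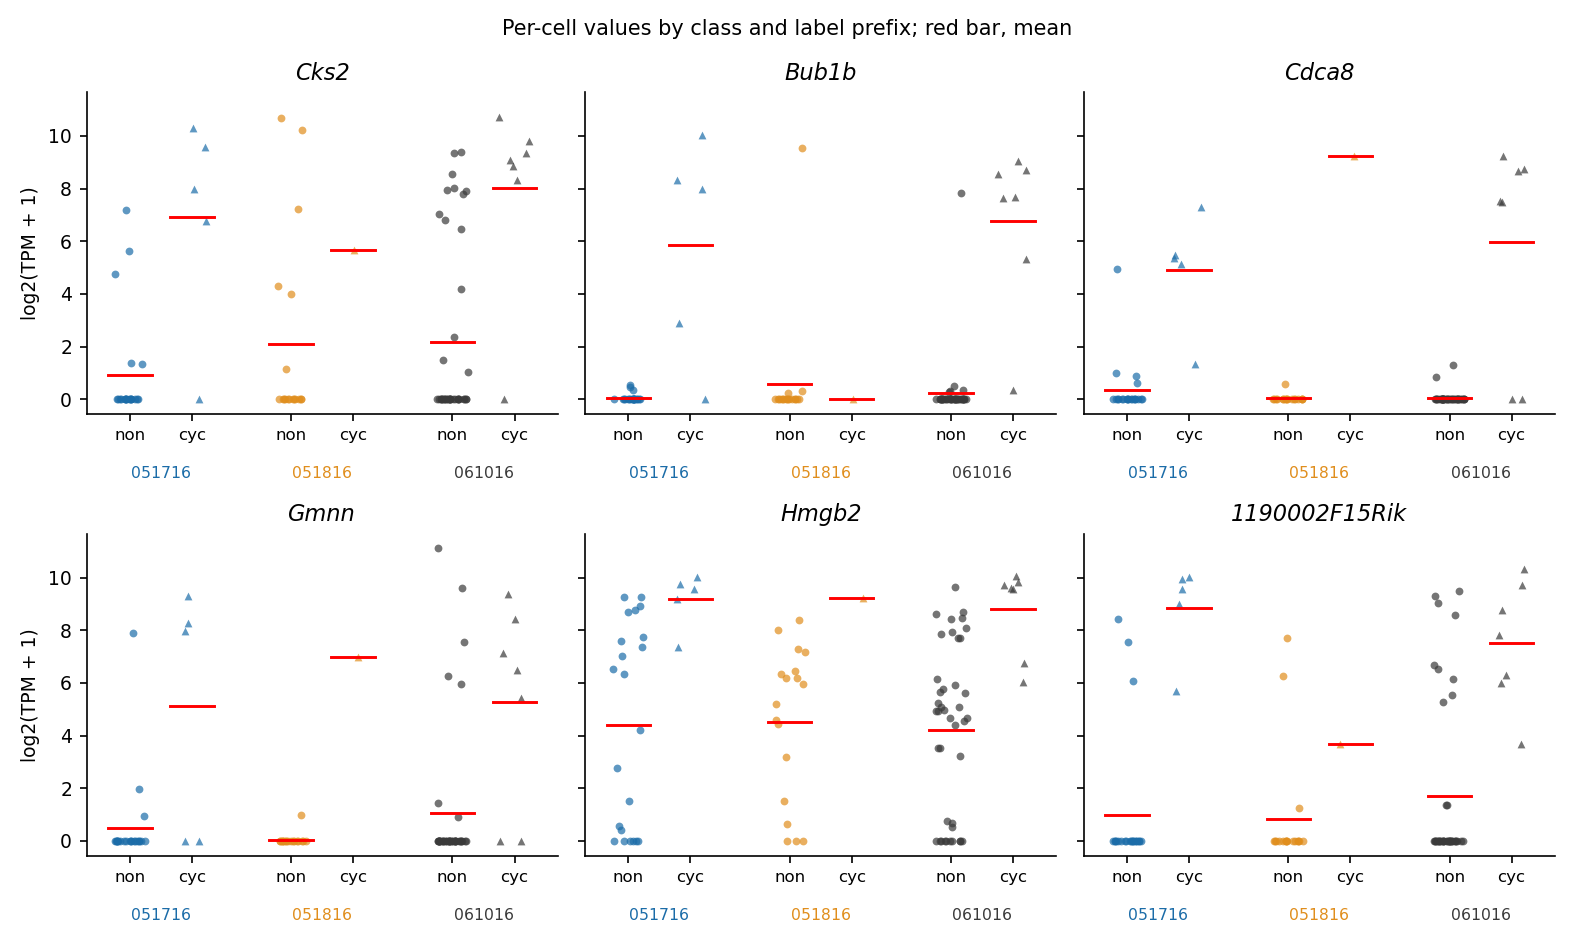
Log2(TPM + 1) of Cks2, Bub1b, Cdca8, Gmnn, Hmgb2 and 1190002F15Rik in each cell, by label prefix, with non-cycling cells (non, circles) beside cycling cells (cyc, triangles); red bars are means over cells. Cycling cells of 051716 and 061016 sit mostly high, Bub1b and Cdca8 are at or near 0 in nearly all non-cycling cells, and Hmgb2 overlaps between the classes.

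Mitosis genes outside the rule were higher as a group. Of 121 listed genes 120 were in the table and 86 passed the filter, and of these 67 (77.9%) were higher and 0 lower, with a median difference of 2.75 against 0.29 over all genes. The filter counts all cells, so a gene found only in cycling cells could pass only through them, and the 86 are not all members. The median was 1.83 in prefix 051716 and 3.297 in 061016, and 2.08 with detected genes as a covariate. Spindle and cytokinesis genes had 26 of 27 higher (median 3.31), among them Prc1, which bundles the central spindle (4.93 against 0.50), and the kinesin Kif20a (4.82 against 0.13). Of the kinetochore and centromere genes 22 of 31 were higher (median 2.55), including Cenpe, a kinetochore motor (4.49 against 0.53), and Cenpa, the centromeric histone (3.97 against 0.45). Among mitotic kinases and regulators 11 of 16 were higher (median 2.56), with Mad2l1, the checkpoint protein Mad2, at 4.82 against 0.78. Condensin and cohesin genes had 8 of 12 higher, and Smc2 and Smc4, the condensin ATPases, stood at 5.58 against 1.92 and 6.16 against 3.02. Cdc26 and Anapc11, subunits of the anaphase-promoting complex, did not reach the limit, at 2.84 against 3.17 and 1.78 against 1.65.

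DNA replication genes were higher in a smaller share. Of 58 listed genes 55 were measured, and 32 (58.2%) were higher and 0 lower, against 18.6% and 2.67% of all genes. The median difference was 1.71, with 0.79 in prefix 051716 and 1.77 in 061016. Gmnn, which encodes geminin, an inhibitor of licensing, reached 5 TPM in 9 of 13 cycling and 6 of 81 non-cycling cells, with means of 5.34 and 0.67. Orc6, of the origin recognition complex, stood at 5.91 against 1.86, Tk1 at 4.35 against 0.53 and the clamp loader subunit Rfc4 at 4.74 against 1.68. Other parts of the machinery did not differ by the limit: Cdc6, the licensing factor, was at 1.06 against 0.95 and Pold2, a subunit of DNA polymerase delta, at 2.31 against 2.25. Mcm2 had opposite differences in the prefixes, -2.01 in 051716 and 3.44 in 061016, and Mcm5 2.08 and 2.72. With detected genes as a covariate the replication median was 0.44, and without the 18 non-cycling cells that held 20 or more replication genes it was 2.44. The size of this group's difference thus moved with both settings.

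Chromatin genes known from dividing cells had 17 of 22 higher and 0 lower (77.3%), with a median of 2.35 in all cells, 2.36 in prefix 051716 and 2.38 in 061016. Ezh2, the histone H3 lysine 27 methyltransferase, stood at 6.05 against 2.30 and reached 5 TPM in 12 of 13 cycling and 28 of 81 non-cycling cells. The H2A variants H2afv (7.11 against 3.34) and H2afz (12.06 against 9.36) and the chaperone Anp32e, which acts on H2A.Z (6.00 against 2.35), were higher too. With the covariate the list median was 0.98. The histone chaperone Set was at 11.30 against 11.20. Histone genes had 14 of 25 measured members higher (56%) and 0 lower, with Hist2h2aa1 at 5.52 against 2.03 and Hist1h2bk at 3.32 against 0.11. Their median was 1.17, and it was 0.57 over all 65 histone genes in the table, filtered or not. A gene found only in cycling cells could pass the filter only through them. Many histone genes are near-identical copies, and most of their transcripts lack the tail that the cDNA priming uses, so these values are uncertain. Repair genes had 11 of 21 higher, with Fanci, of the Fanconi pathway, at 2.50 against 0.26.

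**Figure D4:**
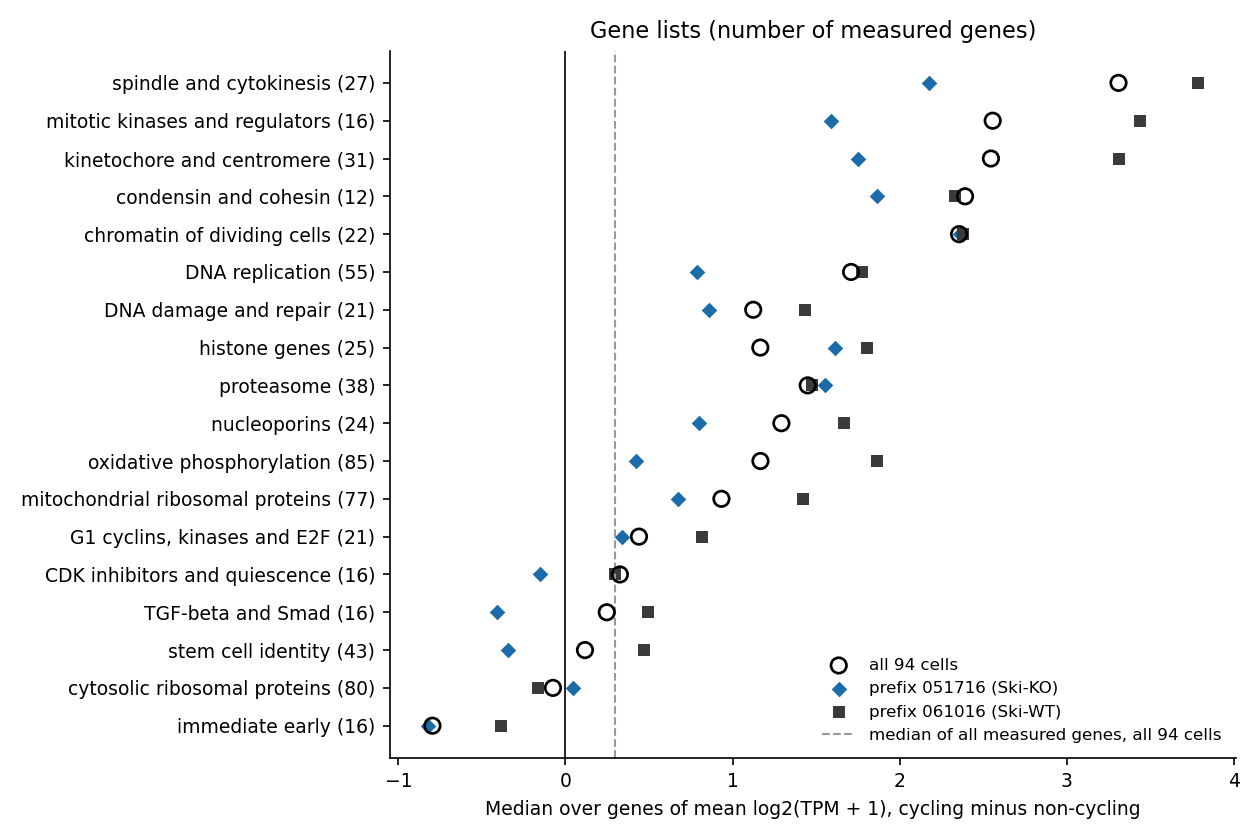
For 18 gene lists, the median over measured genes of the difference cycling minus non-cycling in mean log2(TPM + 1): open circles, all 94 cells; blue diamonds, prefix 051716; dark squares, prefix 061016; dashed line, the median of all measured genes (0.29). The mitosis and chromatin lists lie right of 1.5 in both prefixes, and the stem cell and TGF-beta lists lie on opposite sides of 0 in the 2 prefixes.

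Genes of G1 entry differed little as a list. Of 21 measured genes 6 were higher (28.6%) and 1 lower, with a median of 0.44 that was -0.37 as a ratio of mean TPM and -0.02 after quantile normalization. The higher genes included E2f8, a late repressor of the E2F family (2.70 against 0.30), Cdk2 (3.31 against 2.003) and Cdk4 (7.90 against 6.52). The call of E2f8 was lost without cell D9 of prefix 051716, that of Cdk2 without G6 or E7 of 061016, and that of Cdk4 without G7 or B11 of 051716. Ccnd2, the D-type cyclin most abundant here, was the lower gene, at 5.36 against 6.53. It reached 5 TPM in 9 of 13 cycling and 69 of 81 non-cycling cells. The lone cycling cell of 051816 went the other way (1.10), and the call was lost without any of 4 cells (D5 or G6 of 061016, E6 or B11 of 051716). Cdk6 was at 0.88 against 0.70.

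Genes of quiescence and CDK inhibition were mostly alike. Of 16 measured genes 1 was higher and 1 lower (6.25% each), against 18.6% and 2.67% of all genes. Btg2, an antiproliferative gene, was the higher one, at 5.15 against 3.11, and Klf6, a zinc finger factor, the lower one, at 1.80 against 3.05. Cdkn1c, the inhibitor p57 of quiescent stem cells, was at 1.35 against 1.06 and reached 5 TPM in 3 of 13 and 12 of 81 cells. The list median was 0.33, with -0.15 in prefix 051716 and 0.30 in 061016, but it was -0.29 with the ratio of mean TPM, -0.11 after quantile normalization and 0.11 without cell G6 of 061016.

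Immediate early genes leaned low. Of 16 measured genes 2 were higher (12.5%) and 5 lower (31.2%), against 18.6% and 2.67% of all genes. The higher genes were Btg2, by 2.04, and Ier5, by 1.74. The list median was -0.80, with -0.82 in prefix 051716 and -0.38 in 061016. It was -0.99 with detected genes as a covariate, -1.31 after quantile normalization and -0.63 with the ratio of mean TPM. It was -0.43 without cell G7 of 051716, and -0.42 over all 23 listed genes in the table, filtered or not. Dusp1, a phosphatase of MAP kinases, ranged around a median of 1.34 in cycling cells and 7.43 in non-cycling cells, and 6 of 13 and 60 of 81 reached 5 TPM. Its prefix differences were -0.23 and -3.91, and its call was lost without cell G7 of 051716. Jun was at 5.77 against 6.89 and Fos at 6.99 against 7.95. The lower call of Jun was also lost without G7, that of Zfp36 without D5 of 061016, G7 or D9 of 051716 or A3 of 051816, and that of Fosb without any of 7 cells (E3, A4, D5, F5 or E7 of 061016, G7 of 051716, A3 of 051816). Fosb changed sign (0.034) with the ratio of mean TPM.

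Stem cell identity genes were spread on both sides of 0. Of 43 measured genes of 46 listed, 4 were higher (9.30%) and 5 lower (11.6%), against 18.6% and 2.67% of all genes. The median was 0.12, with -0.34 in prefix 051716 and 0.47 in 061016, and it turned to -0.18 with detected genes as a covariate, -0.42 after quantile normalization and -0.46 with the ratio of mean TPM. Meis1, a homeobox factor of stem cells, was at 5 TPM or more in 13 of 13 cycling and 68 of 81 non-cycling cells. Its means were 8.33 and 7.68, a difference of 0.65 that was -0.48 when 3 rule genes sufficed.

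Procr, which encodes the endothelial protein C receptor Epcr, a surface marker of long-term stem cells, was at or near 0 in every cycling cell. None of the 13 reached 5 TPM, which allows a share of up to 23.1% (3 cells of 13, a rule of thumb and not the exact interval), and their values ran from 0 to 0.64. Of the non-cycling cells 24 of 81 did (29.6%, interval 19.99 to 40.8), with values up to 11.28: 4 of 22 in 051716, 4 of 18 in 051816 and 16 of 41 in 061016. The difference of the means was -2.17 and was negative in every prefix. Since the median over non-cycling cells was also 0, the transcript was not detected in most cells of both classes. With no depth known, such a 0 cannot be told from a missed transcript.

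The other 4 lower stem cell genes were transcription factors. Gfi1b, a repressor of the stem and erythroid lines, reached 5 TPM in 1 of 13 cycling and 30 of 81 non-cycling cells (means 0.95 and 3.13). Gata2, a stem cell GATA factor, was at 4.90 against 6.23, Hlf, a leucine zipper factor of long-term stem cells, at 3.69 against 4.87, and Lyl1, a helix-loop-helix factor, at 3.001 against 4.52. The call of Gata2 was lost without G6 of 061016 or G7 or D9 of 051716. Hlf lost its call without any of 5 cells (A3, A4 or E7 of 061016, E6 or G7 of 051716), and Lyl1 without A4 or F5 of 061016. Kit was at 5.01 against 5.95 and Ly6a at 4.65 against 5.31, both within the limit.

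The higher stem cell genes were 4. Cd27, a receptor of the tumour necrosis factor family found on stem and progenitor cells, had means of 6.15 and 3.42 and reached 5 TPM in 10 of 13 cycling and 37 of 81 non-cycling cells. All 5 cycling cells of prefix 051716 were high, between 7.89 and 10.17, with a difference of 4.65 there, whereas in 061016 the difference was 0.56 and 3 of the 7 cycling cells were at 0. Its call was lost without A3 or G6 of 061016. Runx1 was at 3.94 against 2.59, Etv6 at 5.53 against 4.29 and Slamf1 at 1.82 against 0.80. The call of Runx1 was lost without A3 of 061016, that of Etv6 without E7 of 061016 or D9 of 051716, and that of Slamf1 without A4 or E7 of 061016, C2 of 051716 or A3 of 051816. Cd34, which marks multipotent progenitors, was at 5.35 against 4.42, below the limit.

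**Figure D5:**
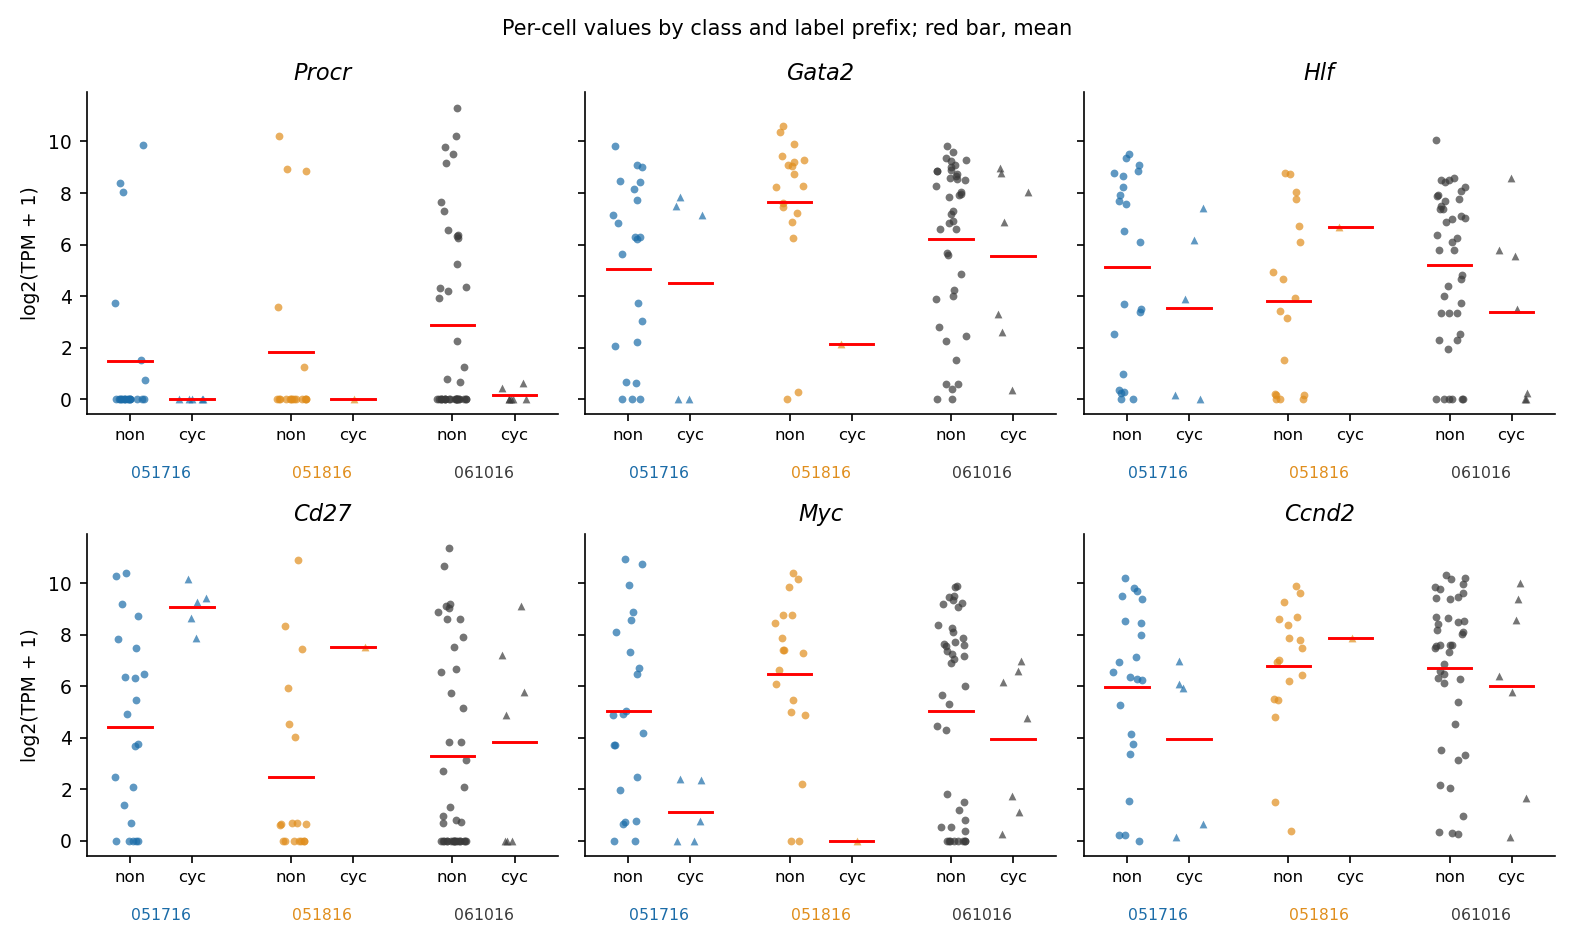
Log2(TPM + 1) of Procr, Gata2, Hlf, Cd27, Myc and Ccnd2 in each cell, by label prefix, with non-cycling cells (non, circles) beside cycling cells (cyc, triangles); red bars are means over cells. No cycling cell passes 0.64 for Procr, and Cd27 is high in all 5 cycling cells of prefix 051716.

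Genes of energy and protein turnover leaned high on the main scale. Oxidative phosphorylation genes had 43 of 85 higher (50.6%) and 0 lower, with a median of 1.17 that was 0.42 in prefix 051716 and 1.87 in 061016, for example Ndufa5, a complex I subunit, at 6.63 against 4.22. Proteasome genes had 17 of 38 higher (44.7%, median 1.45), such as Psma5 at 8.63 against 5.39, and mitochondrial ribosomal proteins 30 of 77 (39%, median 0.93). With detected genes as a covariate these 3 medians were 0.09, 0.29 and 0.10, with the ratio of mean TPM 0.20, 0.29 and -0.00, and in the cells with at least 3500 genes 0.87, 0.95 and 0.70. The 3 medians were thus smaller on each of these scales, and the cause was not tested. Nucleoporins had 13 of 24 higher (median 1.29, and 0.50 with the covariate), among them Nup107 at 3.12 against 0.89. Cytosolic ribosomal proteins had 1 of 80 higher and a median of -0.07, which was 0.03 after quantile normalization and 0.04 with the covariate. Their share of all TPM ran from 13.2% to 28% in cycling cells (median 19.1%) and from 12.2% to 36.2% in the others (median 21.9%).

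Myc, a driver of ribosome biogenesis and growth, was lower in cycling cells. Its values ran from 0 to 6.99 there (median 1.76) and from 0 to 10.95 in non-cycling cells (median 6.48). Of the cycling cells 4 of 13 reached 5 TPM, and of the non-cycling cells 56 of 81. The 4 cycling cells were A4, D5, F5 and E7, all of prefix 061016. The difference was -2.81, with -3.93 in 051716, -6.48 for the lone cell of 051816 and -1.10 in 061016. The sign was kept under every alternative tried, and no single cycling cell decided the call. The ribosome biogenesis list as a whole had 5 of 27 higher (18.5%) and 3 lower (11.1%), against 18.6% and 2.67% of all genes. Mycn was at a difference of 0.36.

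The genes lowest in cycling cells in both prefixes had varied functions. Ranked as above, the 12 lowest were Atp6v0c-ps2, Chmp2a, Dhrs3, Klhl6, Lrrfip1, Sesn1, Sfxn3, Surf1, Shisa5, Leprotl1, Atxn7l3b and D17H6S53E, with differences from -2.73 to -1.36. These too were chosen for differences of the same sign in both prefixes, and none changed sign under the alternatives. In the lone cycling cell of 051816, 5 of the 12 had the opposite sign. Chmp2a, a subunit of the ESCRT-III membrane scission complex, was at 3.13 against 5.86 and reached 5 TPM in 6 of 13 cycling and 57 of 81 non-cycling cells. Dhrs3, a retinaldehyde reductase, Sfxn3, a mitochondrial carrier, and Surf1, an assembly factor of cytochrome oxidase, reached 5 TPM in 0 cycling cells and in 18, 24 and 21 non-cycling cells. Sesn1, a p53 target that restrains mTORC1, did so in 1 and 28 cells. Atp6v0c-ps2 is a pseudogene that shares sequence with its parent, so its value is uncertain.

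Genes of the TGF-beta and Smad pathway, in which Ski acts, were spread likewise. Of 16 measured genes 1 was higher (6.25%) and 0 lower, against 18.6% and 2.67% of all genes. The median was 0.25, with -0.41 in prefix 051716 and 0.49 in 061016. It was -0.28 after quantile normalization, -0.80 with the ratio of mean TPM and -0.09 without cell G6 of 061016. Smad1, a receptor-activated Smad of the BMP branch, was the higher gene, at 2.29 against 1.14, and its call was lost without A4 of 061016 or C2 or B11 of 051716. Ski was at 1.18 against 0.51 and its relative Skil at 2.84 against 2.897. Id1, a BMP target, was at 0 in all 13 cycling cells and at 5 TPM or more in 8 of 81 non-cycling cells. Its difference of -0.82 did not reach the limit. By the rule of thumb used for Procr, 0 of 13 allows a share of up to 23.1%.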

How the data were processed

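Single-cell RNA was profiled in 94 mouse cells. The deposited values are log2(TPM + 1), read as such from the values, and Bowtie2, RSEM and mm9 are named without versions per the submitters' processing notes. Sequencing depth is unknown, there are no molecular identifiers, and no doublet caller was run. Back-transformed TPM gave the classes by the rule stated in the results. Differences are means of log2 values (pseudocount 1) over cells, for genes above 0 in at least 10% of all cells. A gene was called when its difference reached 1 in size with the same sign in each prefix with 3 or more cells of each class. The 12 named at each end were ranked by the smaller prefix difference, leaving out rule genes and sex-linked genes. List members were named by the same measure or because a reader would look for them. Some genes belong to more than 1 list. The members and lists were chosen with earlier results of these data known. Alternatives changed the rule, pseudocount, scaling, covariate, filter, prefixes and cells. The 3500-gene subset and the removal of cells rich in replication genes were added after the data were seen. The calculation was tested on measured values shuffled within each prefix, with known shifts added to some genes in the cycling cells. That checked the arithmetic and not the results. Promoter windows were matched by symbol to RefSeq sequences of GRCm38.p6, with 13 of 16 rule genes found, 98 of 120 mitosis genes and 46 of 58 replication genes. Intervals are exact Clopper-Pearson at 95%. Scripts ran in Python 3.11.15. Tables were handled with pandas 2.3.3 and numpy 2.4.6, intervals with scipy 1.17.1, and plots with matplotlib 3.10.9.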

Additional observations from a re-analysis of the deposited data

Results flagged for a closer look

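Among the cycling cells of a prefix, 56 sets of values were examined for a cell far from the others, and 11 had one, where the critical value used (Dixon's, at 95%) flags about 1 set in 20 by chance for normally distributed values, a rate not checked for sets with many zeros; most are genes with a single cell above or below a run of near-equal values. All values here are log2(TPM + 1). In prefix 051716, cell C2 was low for 1190002F15Rik, at 5.68 where the next cell was at 8.996, and high for Atxn7l3b, at 6.16 against 0.25. Cell E6 was high for Shisa5 (9.37 against 2.69) and at 0.37 for D17H6S53E against 0, and cell B11 was at 1.37 for Atp6v0c-ps2 against 0. In prefix 061016, cell A3 was at 0 for Cks2 where the next cell was at 8.31, and at 0.82 for Surf1 against 0. Cell A4 was at 0.33 for Bub1b against 5.31, cell E3 at 2.36 for Atp6v0c-ps2 against 0.93, cell E7 at 4.10 for Leprotl1 against 1.71, and cell G6 at 6.70 for D17H6S53E against 1.46.

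Some differences had opposite signs in the Ski-KO prefix 051716 and the Ski-WT prefix 061016; the difference between the prefixes was not tested, and genotype and prefix cannot be told apart. The median difference of the stem cell identity list was -0.34 in 051716 and 0.47 in 061016, and that of the TGF-beta and Smad list -0.41 and 0.49. Among stem cell genes, Mllt3 was at 3.16 and -1.56, Esam at 2.33 and -1.86, Eya1 at 1.71 and -1.08, Hoxa9 at -2.47 and 2.09, and Eya2 at -1.03 and 1.004. Among cell cycle genes, the replication kinase Cdc7 was at -1.24 and 4.01, Mcm2 at -2.01 and 3.44, Mcm4 at -1.08 and 1.23, Pold2 at -1.70 and 1.73, Cdkn2c at -1.17 and 1.004, and Cdc25a at 1.48 and -1.15. In the TGF-beta list, Klf10 was at -2.83 and 2.64, and Tgif1 at -2.01 and 2.14.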

How the results depend on the processing

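The number of cycling cells was 13 at 5 rule genes or at 10 TPM and 15 at 3 rule genes or at 1 TPM. With a pseudocount of 0.1 the lower count was 526, and with 10 the counts were 655 higher and 41 lower. The log2 ratio of mean TPM + 1 gave 750 and 2304, quantile normalization 868 and 772, and detected genes as a covariate 838 and 866, with a replication median of 0.44. Without prefix 051716 the counts were 2664 and 368, without 061016 the lower count was 929, and in cells with at least 3500 genes it was 523; without either prefix the sign had to hold in 1 prefix only. The median over cells above 0 gave a stem cell median of -0.42. Leaving out each cycling cell in turn gave 1481 to 1739 higher and 210 to 299 lower genes, and medians of 2.47 to 3.04 for mitosis, 1.49 to 1.92 for replication and -0.03 (without D5 of 061016) to 0.29 (without B11 of 051716) for stem cell genes. The cause of the other shifts was not tested. Signs were reversed with the ratio of means for Tfdp1 (-0.37), Fosb (0.034) and Nop56 (-0.26), with the covariate for Nop56 (-1.35) and Pf4 (-0.27), and with the median over cells above 0 for Usp1 (-0.58), Hist1h2ao (-0.42), Smad1 (-0.15), Mrpl34 (-0.025), Mrpl18 (-0.12), Rrm2 (-0.0013), Lyl1 (0.66), Gata1 (-1.23) and Pf4 (-1.47). The 24 named genes, chosen for large differences of 1 sign, kept it in all 525 values, of which 184 differed from the main value by more than the gap between the prefixes; at 3 rule genes Surf1 was at -1.05 and Klhl6 at -1.34. No paired analysis was possible because the cells carry no pairing and no test was made. With no depth known, a value of 0 cannot be told from a transcript that was missed.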

Other observations

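Glycolysis genes had 8 of 21 higher (38.1%) and 2 lower (9.52%), against 18.6% and 2.67% of all genes. Their median difference was -0.06 in prefix 051716 and 0.61 in 061016. Tpi1, triose phosphate isomerase, was at 6.91 in cycling and 4.07 in non-cycling cells and Pgk1 at 6.55 and 4.66, whereas Pkm, the pyruvate kinase, was at 6.51 and 7.68. The call of Pkm was lost without F5 of 061016 or G7 or B11 of 051716. Nucleotide synthesis genes had 10 of 26 higher (38.5%) and 1 lower (3.85%), with Dtymk, thymidylate kinase, at 7.33 and 4.08. The median of that list was 0.65 in prefix 051716 and 1.15 in 061016. Splicing factors had 13 of 48 higher (27.1%) and 1 lower (2.08%), with Snrpe, a core spliceosome protein, at 9.66 and 6.29. Their median was 1.04 in prefix 051716 and 0.69 in 061016. Interferon response genes had 4 of 21 higher (19%) and 3 lower (14.3%), against 18.6% and 2.67% of all genes. Ifi47, an interferon-induced GTPase, was at 6.48 and 3.93. Gata1, the erythroid GATA factor, reached 5 TPM in 4 of 13 cycling and 4 of 81 non-cycling cells, and Pf4, a megakaryocyte chemokine, in 6 and 23. The call of Gata1 was lost without C2 of 051716, and that of Pf4 without C2 or without A4 of 061016. Pf4 also had the opposite sign with detected genes as a covariate.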
